A study of Mus musculus with 12 samples.

Results

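Ependymomas labelled as overexpressing human NPY were compared with control ependymomas over all 24421 rows of 1 deposited table, which took in 6 of the 12 mouse libraries of the series. The 3 NPY-labelled libraries were from tumours with the genotype ZFTA-RELA plus overexpression of human NPY, and the 3 control libraries were from tumours with the genotype ZFTA-RELA alone. ZFTA-RELA is a gene fusion that defines a class of ependymoma of the cerebral hemispheres and encodes a chimaeric transcriptional regulator, so both groups carried the same driver. The series, whose title concerns serotonin marks on histones in ependymoma, also holds 3 ZFTA-RELA tumours with overexpression of human ETV5 and 3 wild-type cortex samples, whose levels are given here only beside those of the compared groups. The labels name neither the promoter that drives NPY, the age of the mice, nor whether the replicates were separate animals. In both groups replicate 1 held Y-linked reads and replicates 2 and 3 held almost none, so the libraries of a group did not all come from the same animal. Whether replicates 2 and 3 were separate animals is not given, and a p-value here reflects the spread among these libraries, which may be technical in part.

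Neuropeptide Y is a peptide transmitter that, in cortex, is made mainly by inhibitory interneurons. It is cut from a precursor in dense-core vesicles, trimmed and amidated, and acts on the Y receptors, which couple to inhibitory G proteins. Ependymomas with the fusion are thought to arise from radial glia, and in the mouse they grow within brain tissue, so bulk RNA from such a tumour can include RNA of neurons, glia, vessels and immune cells. In such RNA, fewer cells of a type and less RNA per cell cannot be told apart.

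Depth was 8235114, 8214523 and 10481943 reads in the NPY-labelled libraries, against 9443466, 9084782 and 6266613 reads in the control libraries. Levels are read counts scaled to the total of each library (CPM), computed from whole reads recovered from 2 tables that the authors normalized separately, fold changes are differences of group means of log2(deposited value + 1) with their standard error (SE), and a gene was called when its Benjamini-Hochberg adjusted p in limma was under 0.05. The correlation of log2 values across genes, which are not independent replicates, was 0.908 to 0.961 within the NPY-labelled group, 0.932 to 0.963 within the control group and 0.821 to 0.925 between the groups. The sample descriptions of all 3 NPY-labelled libraries carry a code that starts with EC and those of all 3 control libraries a code that starts with DS, so whatever that code stands for cannot be told apart from the NPY label in the comparison of these 6 libraries.

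The tumour label was checked first. The mouse locus of Zfta, listed as 2700081O15Rik, a part of the fusion, was at 260.3, 468 and 267 CPM in NPY-labelled tumours, against 261, 215 and 196 CPM in control tumours and 37.0 to 46.6 CPM in cortex. Rela, the NF-kB subunit that makes up the other part, was at 77.1, 101 and 85.3 CPM in NPY-labelled tumours, against 84.4, 104 and 73.9 CPM in control tumours and 18.5 to 19.1 CPM in cortex. Both tumour groups lay above cortex and overlapped each other in these levels. The growth factor gene Igf2, a known target in tumours with the fusion, was at 5543, 4645 and 4336 CPM in NPY-labelled tumours, against 3525, 6444 and 3822 CPM in control tumours and at most 167 CPM in cortex. The adjusted p was 0.229 for 2700081O15Rik, 0.807 for Rela and 0.695 for Igf2, so none of them was called between the tumour groups.

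The overexpressed human gene was not analysed here, since the values used are reads counted at mouse genes, so the tumours are called NPY-labelled. The mouse Npy gene lies at chr6:49822710-49829507 on the plus strand (GRCm38). Its RefSeq promoter window of 300 bases, from 250 before to 50 after the start, is shown at chr6:49822460-49822759 as sequence of the mouse gene at which the reads below were counted. Whether any of these reads came from human NPY was not tested. Capitals mark CCAAT, the binding motif of the NF-Y factor, read on either strand, so that ATTGG is a match on the minus strand.

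Npy: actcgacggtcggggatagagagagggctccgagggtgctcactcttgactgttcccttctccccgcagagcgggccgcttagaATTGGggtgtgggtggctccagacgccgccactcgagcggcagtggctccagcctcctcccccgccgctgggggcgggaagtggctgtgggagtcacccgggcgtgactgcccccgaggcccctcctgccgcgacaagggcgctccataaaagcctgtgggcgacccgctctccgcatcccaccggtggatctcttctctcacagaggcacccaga

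The window held 1 CCAAT, on the minus strand 166 bases before the start, and 37.1% of the 13966 windows of the genes tested held the motif at least once.

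Mouse Npy had 5.59, 2.19 and 15.9 CPM in NPY-labelled tumours, against 27.2, 21.5 and 46.1 CPM in control tumours. Each NPY-labelled library lay below each control library. So did each ETV5 library, at 1.44, 18.5 and 4.69 CPM, while cortex had 78.4 to 129 CPM. The log2 fold change of NPY-labelled over control tumours was -2.25 (SE 0.69), which did not pass (adjusted p 0.113).

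Of the 15 genes in the list of Npy, its receptors and its peptide handling, 12 were measured well enough to test, 5 were called lower and 0 were called higher. Over all 14425 genes tested, 727 (5.04%) were called, of which 105 (0.728%) were higher and 622 (4.31%) lower in NPY-labelled tumours. Npy2r, the Y2 receptor, which restrains transmitter release from nerve endings, had 0.486, 0.243 and 0.286 CPM in NPY-labelled tumours, against 2.44, 3.19 and 7.66 CPM in control tumours. The groups did not overlap, and Npy2r fell (log2 fold change -3.11, SE 0.55, adjusted p 0.0302), on 9 reads over the NPY-labelled group and 100 over the control group. In ETV5 tumours Npy2r had 0.262, 1.20 and 0.620 CPM, also below each control library. Npy1r, the Y1 receptor, had 6.68, 6.70 and 6.87 CPM in NPY-labelled tumours, against 6.67, 3.74 and 7.66 CPM in control tumours. Its groups overlapped, and its log2 fold change of 0.31 (SE 0.32) did not pass (adjusted p 0.616). Npy4r, Npy5r and Npy6r had too few reads to test, with 3 reads of Npy5r over the NPY-labelled group and 10 over the control group.

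The other called members belong to the dense-core vesicle. Pcsk2, a convertase that cuts peptide precursors, had 1.70, 0.974 and 1.62 CPM in NPY-labelled tumours, against 16.9, 22.5 and 49.8 CPM in control tumours. It fell by 4.07 on the log2 scale (SE 0.45, adjusted p 0.0124), without overlap. The granins Chga and Chgb, matrix proteins of the vesicle, fell, with log2 fold changes of -4.21 and -4.05 (adjusted p 0.0129 and 0.0122), and so did Pcsk1n, which encodes an inhibitor of the convertase Pcsk1 (-2.21, adjusted p 0.0141). Chga had 0.919, 14.6 and 3.81 CPM in ETV5 tumours, against 21.3, 18.6 and 63.0 CPM in control tumours. Chgb overlapped between the ETV5 and control tumours. Scg2, another granin gene, had 3.40, 1.83 and 9.64 CPM in NPY-labelled tumours, against 15.04, 30.3 and 50.6 CPM in control tumours, and was not called (adjusted p 0.0703). The trimming enzyme Cpe averaged 599 ± 229 CPM in NPY-labelled and 1298 ± 205 CPM in control tumours (SD, n = 3 each) and the amidating enzyme Pam 93.5 ± 35.5 CPM in NPY-labelled and 148 ± 11.1 CPM in control tumours, with adjusted p of 0.0906 and 0.239. Leaving out 1 library gave counts of 3, 4 and 6 without NPY-labelled replicates 1, 2 and 3, and of 3, 0 and 3 without control replicates 1, 2 and 3.

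Across all genes the called changes leaned downward in NPY-labelled tumours. Of the 727 called genes, 635 changed at least 2-fold, 54 upward and 581 downward, and the groups did not overlap in CPM for any of the 727. Non-overlap with the NPY-labelled group above held for 11.1% of all genes tested, and with it below for 18.4%. The median log2 fold change was 1.003 among genes called higher, -2.25 among genes called lower and 0.04 over all genes tested. The genes called lower had a median level of 3.96 CPM in NPY-labelled tumours, 12.05 CPM in those with ETV5, 20.6 CPM in control tumours and 149.8 CPM in cortex, and the genes called higher 60.1, 44.8, 31.4 and 13.3 CPM in the same groups.

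The number of calls depended on single libraries. Without control replicate 2 limma called 1 gene (Sez6, named after its values were seen), although 2701 genes had an unadjusted p under 0.05, and it called 78 without control replicate 3, 138 without control replicate 1, 125 without NPY-labelled replicate 1, 571 without NPY-labelled replicate 2 and 513 without NPY-labelled replicate 3. All 727 genes kept their direction in each of these 6 fits, which their lack of overlap in CPM made nearly certain beforehand. DESeq2 on the recovered reads called 1833 genes, among them all 727, with 33.1% of them higher, against 14.4% in limma. A limma fit on all 9 tumour libraries, which adds the spread among the ETV5 tumours, called 1 gene (Ifi44l). With the first letters of the library code as a further term, which rests on 1 ETV5 library coded EC, limma called 0 genes, 1332 genes had an unadjusted p under 0.05, and 722 of the 727 kept their sign.

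**Figure D1:**
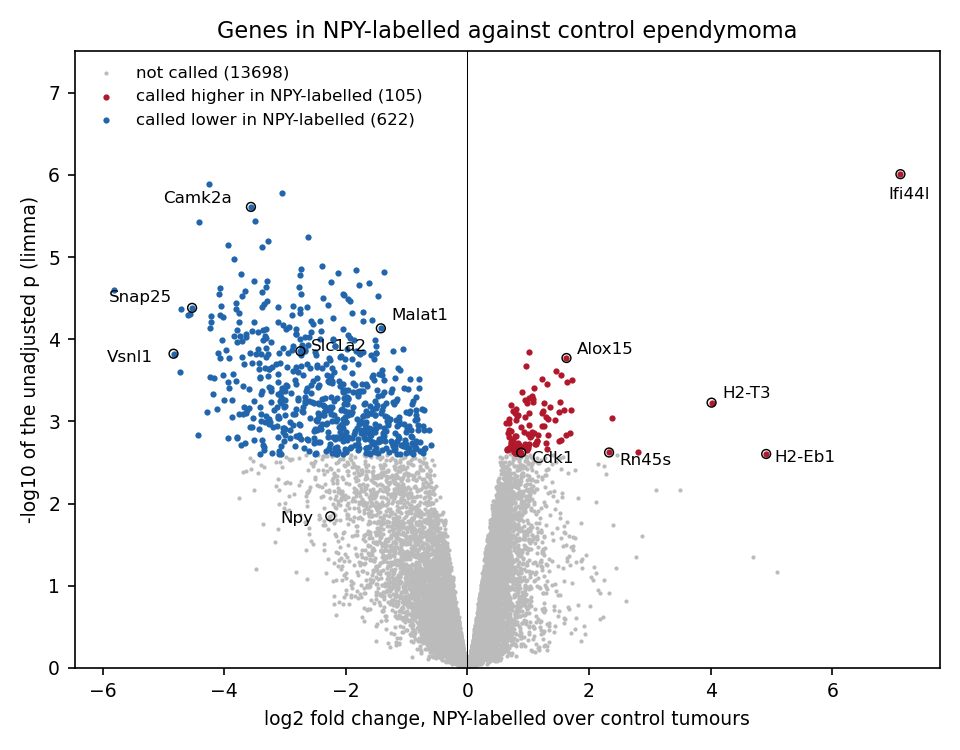
Log2 fold change of NPY-labelled over control tumours (x axis) against the -log10 of the unadjusted limma p (y axis) for 14425 genes, with 105 called higher in red, 622 called lower in blue and the rest in grey. The called genes on the left are more numerous and lie further from 0 than those on the right, while Npy lies among the genes that were not called.

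Many genes of neurons fell in NPY-labelled tumours. Of 18 pan-neuronal genes, 11 were called lower and 0 higher (median log2 fold change -2.67), and of 14 genes of cortical excitatory neurons 9 were called lower and 0 higher (median -3.20), beside 4.31% called lower and a median of 0.04 over all genes tested. Snap25, a core protein of synaptic vesicle fusion at chr2:136713453-136782428, had 5.59, 4.38 and 7.44 CPM in NPY-labelled tumours, against 92.1, 98.4 and 311 CPM in control tumours. The lowest control library was far above the highest NPY-labelled one, and Snap25 fell by 4.53 on the log2 scale (SE 0.48, adjusted p 0.0122). Syt1, the calcium sensor of vesicle release, had 6.44, 3.896 and 6.68 CPM in NPY-labelled tumours, against 63.9, 89.6 and 181 CPM in control tumours. It fell by 4.08 (SE 0.41, adjusted p 0.0122). Snhg11, an RNA gene expressed in neurons, fell by 4.24 (SE 0.27), with the joint lowest adjusted p of all genes, 0.00794, and Thy1, a surface glycoprotein of projection neurons, by 2.87 (adjusted p 0.0122).

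Among the genes of excitatory neurons, Slc17a7, which loads glutamate into vesicles, had 9.23, 3.53 and 5.25 CPM in NPY-labelled tumours, against 80.5, 86.0 and 204 CPM in control tumours. It fell by 4.22 on the log2 scale (SE 0.46, adjusted p 0.0124). Camk2a, a kinase of the postsynaptic density, had 21.0, 25.6 and 21.7 CPM in NPY-labelled tumours, against 199.7, 306 and 377 CPM in control tumours, and fell by 3.56 (SE 0.25, adjusted p 0.00884). Control replicate 3 held the highest level of both genes, and neither gene overlapped between the groups. The calmodulin-binding protein gene Nrgn fell by 3.80 and the kinase inhibitor gene Camk2n1 by 3.30 (adjusted p 0.0122 each). Others with large falls were Vsnl1 and Hpca, which encode neuronal calcium sensors (log2 fold changes -4.83 and -4.72), Panx2, a channel gene (-4.60), and Rph3a, whose product binds vesicles (-4.42), with adjusted p of 0.0153, 0.0122, 0.0124 and 0.009.

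Genes of inhibitory neurons were also among those called lower. Of 9 interneuron genes tested, 5 were called lower and 0 higher, beside 4.31% called lower over all genes tested. With 1 library left out the interneuron count was 1, 4 and 4 without NPY-labelled replicates 1, 2 and 3. It was 1, 0 and 0 without control replicates 1, 2 and 3. Gad1, which makes GABA, had 2.55, 0.730 and 4.58 CPM in NPY-labelled tumours, against 19.9, 18.2 and 50.6 CPM in control tumours, without overlap (log2 fold change -3.51, SE 0.69, adjusted p 0.0409). Its partner enzyme Gad2 fell by 3.36 (adjusted p 0.0441). Of 9 genes of immature neurons only Elavl3, an RNA-binding protein gene, was called lower (log2 fold change -2.02, adjusted p 0.0234), and 0 were called higher. The median log2 fold change of the immature neuron list was -0.37.

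Set against the cortex mean, the median level of the excitatory neuron genes was 0.644%, 0.749% and 0.647% in NPY-labelled tumours and 5.93%, 7.65% and 13.7% in control tumours, while ETV5 tumours were at 0.681%, 8.17% and 2.74%. The NPY-labelled and control libraries did not overlap in this measure (means 0.680% ± 0.0599 and 9.08% ± 4.06, SD, n = 3 each). The summed level of the pan-neuronal list was 461.5 to 669.6 CPM in NPY-labelled tumours, against 1269.98 to 2219 CPM in control tumours and 12161 to 12521 CPM in cortex. The part of cortical tissue in these falls was not tested. With 1 library left out, the pan-neuronal count ranged from 0 to 14 and the excitatory count from 0 to 8, with 0 in each list without control replicate 2.

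Many genes of the synapse were called lower as well. Of 20 genes of the presynaptic release machinery, 14 were called lower and 0 higher (median log2 fold change -2.12). Over all genes tested, 4.31% were called lower. Vamp2, the vesicle partner of Snap25, had 38.5, 39.2 and 40.2 CPM in NPY-labelled tumours, against 116, 94.8 and 157 CPM in control tumours. The groups did not overlap, and Vamp2 fell by 1.52 on the log2 scale (SE 0.19, adjusted p 0.0141). The vesicle membrane protein gene Syp fell by 2.97 (adjusted p 0.0225) and Cplx1, which clamps vesicle fusion, by 4.06 (adjusted p 0.0159). For this list the count was 1, 13 and 10 without NPY-labelled replicates 1, 2 and 3, and 4, 0 and 4 without control replicates 1, 2 and 3.

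Of 23 subunits of glutamate and GABA receptors, 10 were called lower and 0 higher (median -1.59), beside 4.31% called lower over all genes tested. They included the AMPA receptor gene Gria1 (log2 fold change -2.28, adjusted p 0.0459), the GABA-A receptor gene Gabrb2 (-3.10, adjusted p 0.0153) and the GABA-B receptor gene Gabbr1 (-1.72, adjusted p 0.0302). Of 25 ion channel genes, 7 were called lower and 0 higher (median -1.44), among them the sodium channel gene Scn8a (-3.08, adjusted p 0.0264) and the potassium channel gene Kcna2 (-2.05, adjusted p 0.0315). Gabrb2 had 1.82, 2.19 and 1.91 CPM in NPY-labelled tumours, against 12.2, 15.9 and 34.1 CPM in control tumours, which did not overlap. With 1 library left out, the receptor count ranged from 0 to 8, with 0 without NPY-labelled replicate 1 or control replicate 2, and the channel count from 0 to 10, with 0 when NPY-labelled replicate 1 or any 1 of the controls was left out.

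Of 10 precursors of other neuropeptides tested, 4 were called lower and 0 higher (median -2.54), beside 4.31% called lower over all genes tested. Cck, a peptide of cortical neurons, had 1.94, 1.10 and 2.003 CPM in NPY-labelled tumours, against 16.2, 18.7 and 46.1 CPM in control tumours. It fell by 3.71 on the log2 scale (SE 0.46, adjusted p 0.0141), without overlap. Sst, the somatostatin gene of interneurons, had 1.34, 0.243 and 2.39 CPM in NPY-labelled tumours, against 15.8, 10.7 and 32.4 CPM in control tumours, and fell by 3.94 (SE 0.77, adjusted p 0.0402). Gal, the galanin gene, had 0.607, 0.122 and 0.191 CPM in NPY-labelled tumours, against 2.86, 1.98 and 7.66 CPM in control tumours and 0.134 to 0.835 CPM in cortex, so its level in control tumours exceeded that in cortex, unlike those of Cck and Sst. Gal fell by 3.21 (SE 0.68, adjusted p 0.0493), and the fourth gene, Pnoc, the precursor of nociceptin, had 3 reads over the NPY-labelled group and 56 over the control group. Gal and Pnoc lost their call in each of the 6 fits with 1 library left out, Sst in all but those without NPY-labelled replicate 2 or 3, and Cck in the 1 without control replicate 2.

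Of 16 genes of astrocytes, 6 were called lower and 0 higher (4.31% of all genes were called lower). All 16 had a negative log2 fold change (46.8% over all genes tested), with a median of -1.91. Slc1a2, the main glutamate transporter of astrocytes, had 72.1, 53.6 and 147 CPM in NPY-labelled tumours, against 525, 639 and 611 CPM in control tumours. The groups were far apart, and Slc1a2 fell by 2.75 on the log2 scale (SE 0.35, adjusted p 0.0153). Sparcl1, a secreted synapse-promoting protein gene, fell by 1.98 (adjusted p 0.0414), the receptor gene Gpr37l1 by 2.10 (adjusted p 0.0159) and Mlc1, a membrane protein gene of astrocyte endfeet, by 1.69 (adjusted p 0.0405). The summed level of the list was 7038, 3490.04 and 8107 CPM in NPY-labelled tumours, against 11767, 11890.3 and 11943 CPM in control tumours, close to the 12465 to 13998 CPM of cortex. In ETV5 tumours the sum was 7323 to 11090.5 CPM, also below each control library. The count ranged from 0 to 10 with 1 library left out, and was 0 without control replicate 1, 2 or 3.

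Genes of radial glia, the presumed cells of origin of these tumours, were less uniform. Of 18 tested, 2 were called lower and 0 higher, with a median of -0.44. They were Fabp7, a fatty acid binding protein gene, at 33.8, 25.3 and 52.0 CPM in NPY-labelled tumours against 78.8, 98.5 and 111 CPM in control tumours, and Slc1a3, a glutamate transporter gene shared with astrocytes, at 80.4, 50.5 and 196 CPM in NPY-labelled tumours against 537, 646 and 473 CPM in control tumours. Neither gene overlapped between groups, and their log2 fold changes were -1.34 (SE 0.28, adjusted p 0.0459) and -2.48 (SE 0.47, adjusted p 0.0362). In the oligodendrocyte lineage, 2 of 12 precursor genes and 1 of 15 myelin genes were called, all lower, beside 4.31% called lower over all genes tested. Gpr17, a receptor of maturing precursors, fell by 1.12 (adjusted p 0.0333), Neu4, a sialidase gene, by 1.41 (adjusted p 0.0186) and Cnp, an enzyme of myelin, by 0.93 (adjusted p 0.0395). Mbp, a main protein of myelin, had 130.1, 202 and 668 CPM in NPY-labelled tumours, against 2162, 923 and 1686 CPM in control tumours, and was not called (adjusted p 0.0752). No gene of these 3 lists was called when NPY-labelled replicate 1 or any 1 of the 3 controls was left out.

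**Figure D2:**
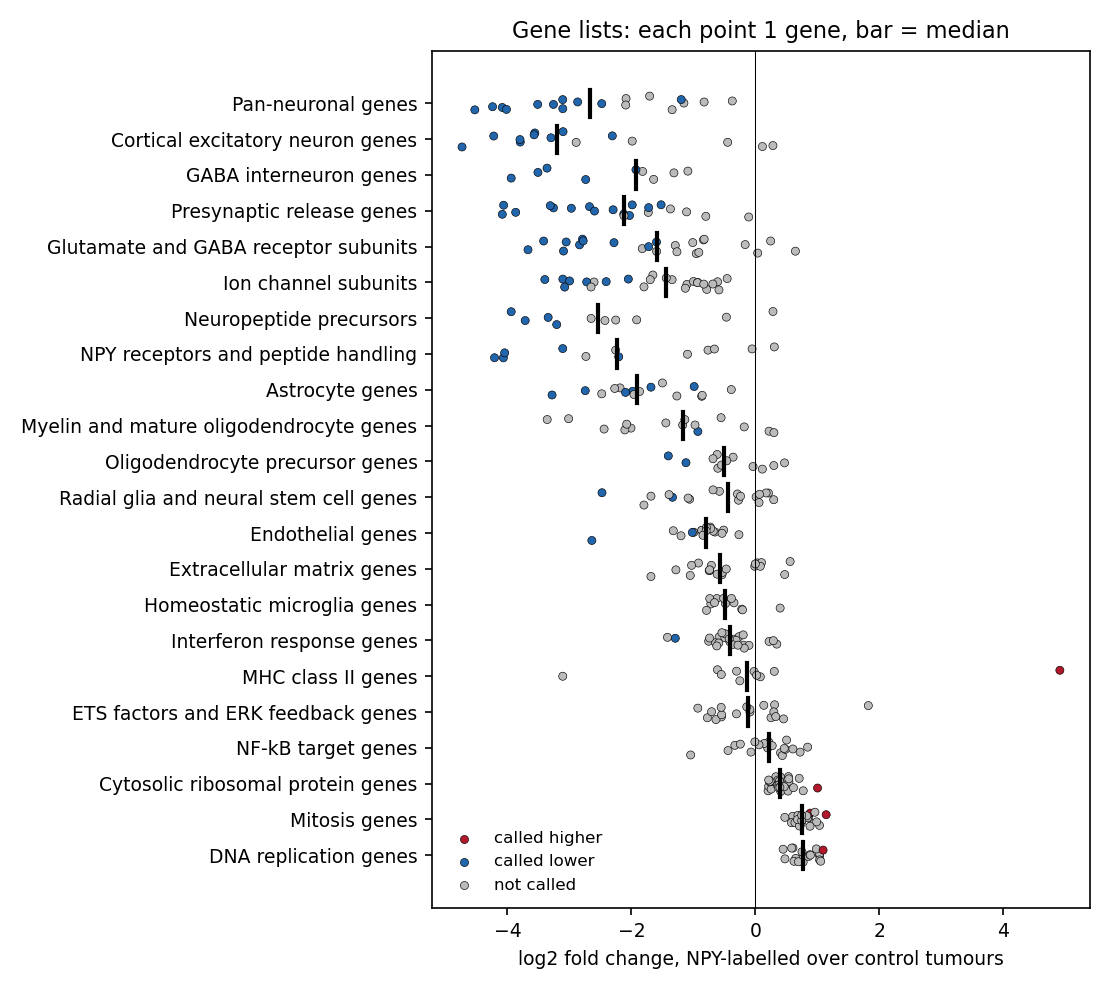
Log2 fold change of NPY-labelled over control tumours (x axis) for each tested gene of 22 gene lists (rows), with genes called higher in red, called lower in blue, the others in grey and the median of each list as a black bar. Medians of the pan-neuronal, excitatory neuron, interneuron, synaptic, neuropeptide and astrocyte lists lie left of -1. The cytosolic ribosomal protein, mitosis and DNA replication lists lie wholly right of 0.

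Genes of cell division lay above 0 throughout, with few calls. Of 20 mitosis genes, 2 were called higher and 0 lower (0.728% of all genes were called higher), all 20 had a positive log2 fold change (53.2% over all genes tested), and in 18 the NPY-labelled libraries lay above the control libraries (11.1% over all genes tested). The median of the list was 0.75. Of 20 genes of DNA replication, 2 were called higher and 0 lower, all 20 were positive, 15 did not overlap with the NPY-labelled group above, and the median was 0.76. Cdk1, the kinase that drives entry into mitosis, had 184, 211 and 170.2 CPM in NPY-labelled tumours, against 124, 116 and 86.6 CPM in control tumours. The groups did not overlap, and Cdk1 rose (log2 fold change 0.88, SE 0.19, adjusted p 0.0491). Kif11, the motor protein that separates the spindle poles, had 104, 132 and 87.6 CPM in NPY-labelled tumours, against 57.3, 57.8 and 40.2 CPM in control tumours. It rose without overlap (log2 fold change 1.14, SE 0.23, adjusted p 0.0418).

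Promoters of mitosis genes are known for CCAAT boxes and for the CHR element TTTGAA, which the DREAM complex and B-MYB use to time transcription in the cell cycle. The RefSeq windows of the called mitosis genes are shown for that reason, with CCAAT and TTTGAA in capitals on either strand, so that ATTGG and TTCAAA are minus-strand matches. The window of Cdk1 is chr10:69352863-69353162 on the minus strand, and that of Kif11 is chr19:37376132-37376431 on the plus strand (GRCm38.p6), both written 5′ to 3′ along the gene.

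Cdk1: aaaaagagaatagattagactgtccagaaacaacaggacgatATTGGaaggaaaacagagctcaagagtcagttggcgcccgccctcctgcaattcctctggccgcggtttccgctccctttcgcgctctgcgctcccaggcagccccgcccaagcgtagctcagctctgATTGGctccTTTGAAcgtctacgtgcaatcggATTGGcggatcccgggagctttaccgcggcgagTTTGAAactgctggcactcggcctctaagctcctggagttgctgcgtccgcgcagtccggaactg

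Kif11: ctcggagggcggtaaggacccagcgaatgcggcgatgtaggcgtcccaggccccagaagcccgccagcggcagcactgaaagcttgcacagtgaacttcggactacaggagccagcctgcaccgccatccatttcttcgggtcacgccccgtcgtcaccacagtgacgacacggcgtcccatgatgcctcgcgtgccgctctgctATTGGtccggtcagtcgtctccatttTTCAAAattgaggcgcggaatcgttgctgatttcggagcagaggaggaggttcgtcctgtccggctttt

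Cdk1 had CCAAT 3 times, 208, 80 and 48 bases before the start, and TTTGAA at 71 and 15 bases before it. Kif11 had 1 CCAAT at 45 and 1 TTTGAA at 19 bases before the start. Both motifs occurred together in 11 of the 16 windows available for the mitosis list, in 2 of the 18 for the DNA replication list, in 11 of the 86 for genes called higher and in 23 of the 658 for genes called lower, against 4.80% of the 13966 windows of all genes tested. In the windows printed, no match overlaps another, and a match describes the letters only.

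Among the replication genes, Gins2, a subunit of the helicase complex, had 38.4, 42.1 and 41.4 CPM in NPY-labelled tumours, against 20.8, 22.6 and 17.4 CPM in control tumours. It rose without overlap (log2 fold change 1.09, SE 0.17, adjusted p 0.023), and so did Pcna, the sliding clamp of DNA polymerase (0.73, SE 0.15, adjusted p 0.0422). Ccne2, a cyclin of the G1 to S transition, had 11.1, 11.2 and 10.4 CPM in NPY-labelled tumours, against 4.98, 3.19 and 3.35 CPM in control tumours (log2 fold change 1.58, SE 0.27, adjusted p 0.0289). Ccnd1, the D cyclin that is high in tumours with this fusion, was at 883, 671 and 649 CPM in NPY-labelled tumours, against 470.3, 727 and 723 CPM in control tumours, overlapped and was not called (adjusted p 0.472). Of 23 genes of histone and DNA modifying enzymes none was called; the maintenance factor Uhrf1 averaged 221 ± 78.8 CPM in NPY-labelled tumours and 118 ± 35.0 CPM in control tumours (SD, n = 3 each, adjusted p 0.143). With 1 library left out, limma called 0 mitosis genes in each fit and at most 1 replication gene, whereas DESeq2 on all 6 libraries called 14 and 9 higher. Over all genes, DESeq2 called 606 of 14409 higher.

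The largest rise among called genes was that of Ifi44l, an interferon-induced gene at chr3:151758737-151762892. It had 91, 178 and 174 reads (11.1, 21.7 and 16.6 CPM) in NPY-labelled tumours, and 0 reads in each control tumour, in ETV5 replicates 1 and 2 and in cortex. ETV5 replicate 3 had 1 read. Against a floor of 3 reads over the control group, Ifi44l was at least 136-fold higher (adjusted p 0.00794), and it lost its call in 2 of 20 alternative fits, among them the one without control replicate 2. The 25 interferon response genes of the list, which does not hold Ifi44l, had a median of -0.41. Of them, 22 were negative (46.8% over all genes tested), 1 was called lower (4.31% over all genes tested) and 0 were called higher. The called one, Ifit3b, which encodes an antiviral protein, had 37.9, 40.3 and 43.6 CPM in NPY-labelled tumours, against 101, 143 and 80.9 CPM in control tumours (log2 fold change -1.29, SE 0.23, adjusted p 0.032), and it lost its call in each of the 6 fits with 1 library left out. Ifitm3, which blocks viral entry, had 296, 312 and 324 CPM in NPY-labelled tumours, against 478, 572 and 364 CPM in control tumours, and was not called (adjusted p 0.194).

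The next largest rise among called genes was that of H2-Eb1, the beta chain of the class II molecule I-E, at chr17:34305867-34316674. It had 343, 43.6 and 162 CPM in NPY-labelled tumours, 10.5, 56.2 and 72.5 CPM in ETV5 tumours, and 6.46, 12.9 and 1.12 CPM in control tumours. The NPY-labelled and control libraries did not overlap, and H2-Eb1 rose (log2 fold change 4.91, SE 1.04, adjusted p 0.0499), just inside the threshold, with a call in 5 of 20 alternative fits. The other 9 class II genes were not called. H2-Ab1, the beta chain of I-A, chosen after its values were seen, had 533, 75.6 and 415 CPM in NPY-labelled tumours, against 567, 641 and 92.4 CPM in control tumours (log2 fold change -0.25, SE 0.99, adjusted p 0.908). Its groups overlapped, and H2-Eb1 reads were 64.4%, 57.6% and 39.1% of H2-Ab1 reads in NPY-labelled tumours, 4.73%, 65.6% and 78.9% in those with ETV5, and 1.14%, 2.01% and 1.21% in control tumours. H2-T3, a class I gene of the same chromosome with close paralogs whose reads the counting could have split, had 10.3, 16.2 and 8.11 CPM in NPY-labelled tumours, 1.31, 6.43 and 12.04 CPM in ETV5 tumours, and 1.27, 0.881 and 0.160 CPM in control tumours (log2 fold change 4.02, SE 0.66, adjusted p 0.0268). None of the 14 tested genes in the list of class I presentation was called. With 1 library left out, H2-Eb1 kept its call in the fit without NPY-labelled replicate 2 alone, and H2-T3 in 0 of the 6 fits.

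Further genes with large rises came from several unrelated roles. Rgs1, which dampens G protein signalling in leukocytes, had 10.2, 20.9 and 27.9 CPM in NPY-labelled tumours, 17.8, 10.5 and 18.95 CPM in ETV5 tumours, and 3.92, 4.40 and 2.71 CPM in control tumours (NPY over control log2 fold change 2.38, SE 0.42, adjusted p 0.0313). Alas2, which starts heme synthesis in red cell precursors, had 4.74, 7.06 and 20.03 CPM in NPY-labelled tumours, against 0.847, 1.10 and 1.91 CPM in control tumours (2.81, SE 0.59, adjusted p 0.0483), while the haemoglobin genes of its list had too few reads to test. Alas2 had 9.32, 3.59 and 5.85 CPM in ETV5 tumours and 6.82 to 18.95 CPM in cortex. Rgs1 and Alas2 were lower in each control library than in any NPY-labelled or ETV5 one. Dmrt1, a transcription factor gene of the developing gonad, had 94.6, 89.5 and 59.5 CPM in NPY-labelled tumours, 73.2, 12.1 and 37.4 CPM in ETV5 tumours, and 28.4, 19.2 and 31.0 CPM in control tumours, with 0 reads in cortex. It rose by 1.71 on the log2 scale (SE 0.25, adjusted p 0.0211), and Foxl2os, a transcript antisense to the neighbourhood of Foxl2, by 1.51 (adjusted p 0.0414), in counts whose use of strand is not given in the sources used here. Syce2, a protein gene of the meiotic synaptonemal complex, had 92.5, 111 and 76.4 CPM in NPY-labelled tumours, against 33.7, 41.3 and 27.4 CPM in control tumours (1.54, SE 0.22, adjusted p 0.02). In ETV5 tumours Syce2 had 43.2, 45.6 and 87.2 CPM. The others were Clcn5, an endosomal chloride exchanger gene (1.71, adjusted p 0.0289), Nhs, an actin regulator gene (1.68, adjusted p 0.0377), Alox15, a lipoxygenase gene (1.63, adjusted p 0.0159), and the zinc finger gene Zfp641 (1.52, adjusted p 0.0265). No gene of this paragraph was called when any 1 of the 3 controls was left out. Alas2, Foxl2os and Nhs also lost their call without each NPY-labelled library, Rgs1 kept it without NPY-labelled replicate 1, Zfp641 without replicate 2, and the others without replicate 2 or 3.

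**Figure D3:**
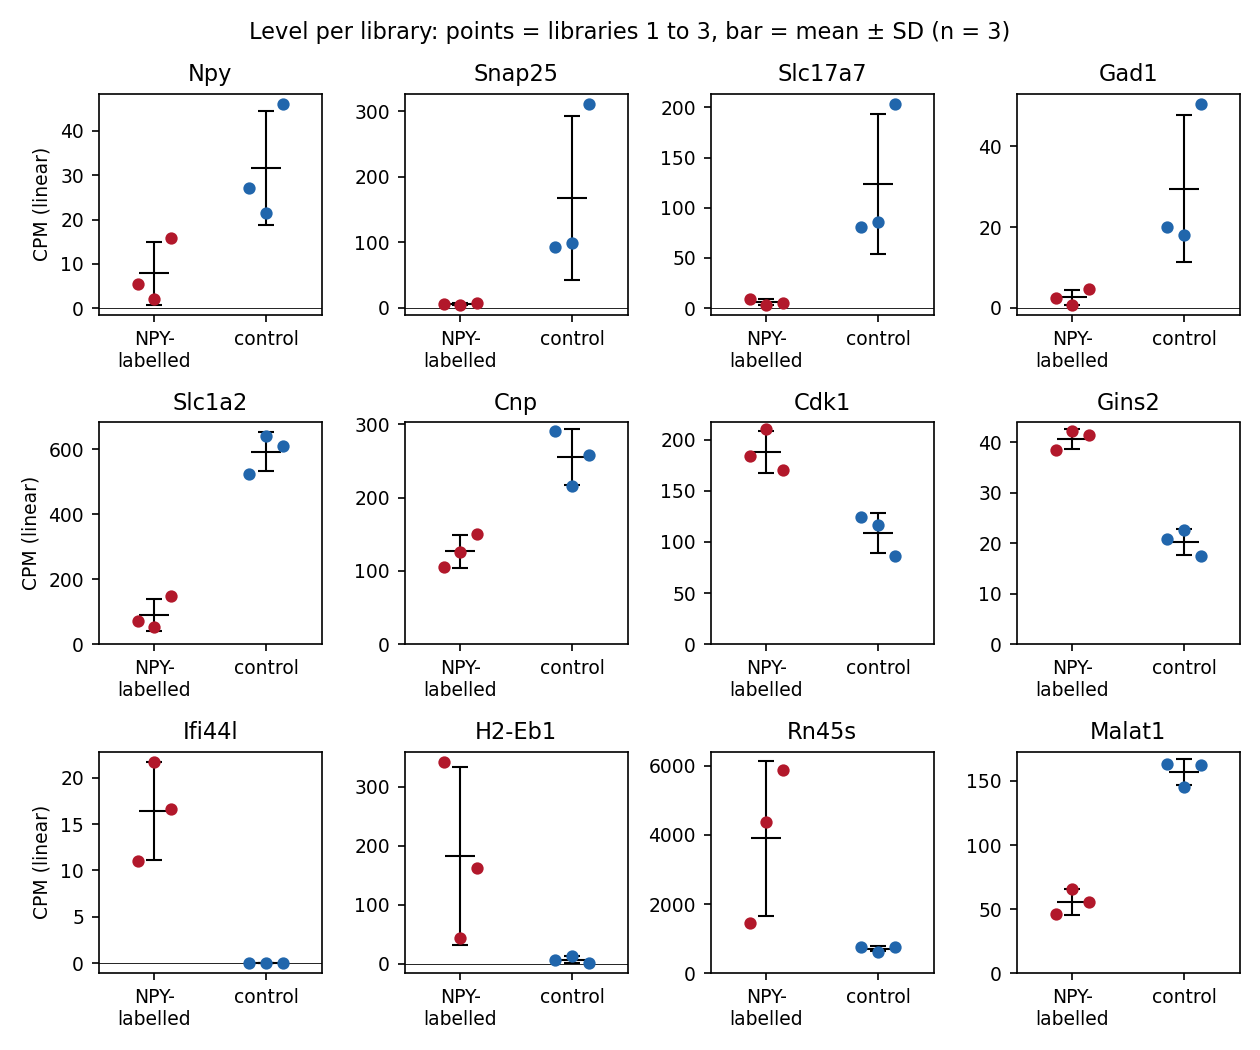
Levels in CPM (y axes, linear) of 12 genes in the 3 NPY-labelled libraries (red, left) and the 3 control libraries (blue, right), with each point 1 library and bars for mean ± SD (n = 3 each). The neuronal, glial and Malat1 panels are lower and the Cdk1, Gins2, Ifi44l, H2-Eb1 and Rn45s panels higher in NPY-labelled tumours, and no panel overlaps between the groups.

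The lists of immune cell genes gave no calls. Of 12 genes of resting microglia, 22 of macrophages, 11 of monocytes and neutrophils, 15 of lymphocytes, 26 chemokines and interleukins and 17 complement genes, 0 were called in limma. Of these 103 genes, 12 had an unadjusted p under 0.05, DESeq2 called 5 and edgeR 0. Over all genes tested, 3389 of 14425 had an unadjusted p under 0.05 in limma, and DESeq2 called 1833 of 14409. Csf1r, the growth factor receptor of microglia and macrophages, had 226, 547 and 272 CPM in NPY-labelled tumours, against 662, 584 and 409.8 CPM in control tumours, which overlapped (adjusted p 0.33). The summed level of the lymphocyte list was 226, 44.7 and 349.8 CPM in NPY-labelled tumours, against 58.6, 73.5 and 118 CPM in control tumours, so NPY-labelled replicates 1 and 3 were above and replicate 2 below all controls. Lcn2, a secreted iron carrier gene of neutrophils and reactive glia, had 30.7, 14.97 and 61.1 CPM in NPY-labelled tumours, against 217, 108 and 126 CPM in control tumours, without overlap and without a call (adjusted p 0.0655).

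Vascular genes leaned downward. All 17 endothelial genes had a negative log2 fold change (46.8% over all genes tested), with a median of -0.80. Of them, 2 were called lower (4.31% over all genes tested). Slco1a4, an anion transporter gene of the blood-brain barrier, had 3.28, 6.94 and 2.96 CPM in NPY-labelled tumours, against 28.1, 36.8 and 20.3 CPM in control tumours and 26.9 to 45.0 CPM in cortex. It fell by 2.64 on the log2 scale (SE 0.41, adjusted p 0.0229), without overlap, and Abcb1a, a drug efflux pump gene of the same barrier, fell by 1.02 (SE 0.22, adjusted p 0.0491). The summed endothelial level was 334, 296 and 752 CPM in NPY-labelled tumours, against 714, 806 and 842 CPM in control tumours, and overlapped. Of 12 genes of pericytes and smooth muscle, Vtn, which encodes vitronectin, was called lower (log2 fold change -2.26, adjusted p 0.028), and 0 were called higher. None of 11 genes of meningeal fibroblasts, 20 of the extracellular matrix, 11 of motile cilia or 5 of the choroid plexus was called. No call among these vascular genes was made when any 1 of the 3 controls was left out. Slco1a4 and Abcb1a also lost their call without NPY-labelled replicate 1, and Abcb1a and Vtn without NPY-labelled replicate 3.

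Of 19 genes linked to the fusion in ependymoma, 2 were called lower and 0 higher (median -0.31), beside 4.31% called lower over all genes tested. They were Nrcam, a neuronal adhesion protein gene, at 58.0, 39.9 and 71.1 CPM in NPY-labelled tumours against 129, 169 and 165 CPM in control tumours (log2 fold change -1.40, SE 0.23, adjusted p 0.0277), and Rbfox1, a splicing regulator gene of neurons (-3.32, SE 0.47, adjusted p 0.0182). Both are also expressed in cortex, at 304 to 391 CPM for Nrcam and 311 to 349 CPM for Rbfox1. Of 31 axon guidance genes 0 were called. Plxnd1, a semaphorin receptor gene of that list, had 757, 748 and 941 CPM in NPY-labelled tumours, against 348, 599 and 499 CPM in control tumours, without overlap (adjusted p 0.0805). None of 19 NF-kB targets, 18 ETS factors and genes of ERK feedback or 18 immediate early genes was called, and Etv5, the mouse counterpart of the gene overexpressed elsewhere in the series, had 346, 326 and 251 CPM in NPY-labelled tumours, against 264, 322 and 299.5 CPM in control tumours (adjusted p 0.692). Of 18 genes of the Notch pathway, Nrarp, a feedback inhibitor, rose (log2 fold change 1.05, SE 0.20, adjusted p 0.037), at 54.5, 72.4 and 53.3 CPM in NPY-labelled tumours against 36.6, 25.3 and 30.0 CPM in control tumours. ETV5 tumours had 51.0, 59.6 and 58.3 CPM of Nrarp, also above each control library. It was the 1 called gene of that list, beside 0.728% called higher over all genes tested. None of 16 genes of the IGF axis, 20 of hypoxia and glycolysis, 19 of the ER stress response, 17 of cholesterol synthesis, 24 of the respiratory chain or 19 p53 targets and cell cycle brakes was called. Cryab, a small heat shock protein gene of glia, was the 1 called of 13 heat shock genes (log2 fold change -1.81, adjusted p 0.0474). Tnnt3, a troponin gene listed with gonadal and muscle genes, had 854, 497 and 646 CPM in NPY-labelled tumours, against 343, 358 and 474 CPM in control tumours and at most 0.537 CPM in cortex, and was not called (adjusted p 0.0871). Across all 24 lists in which limma made no call, 73 of the 403 genes tested had an unadjusted p under 0.05, beside 3389 of all 14425 genes. In these lists DESeq2 called 37, of which 11 were axon guidance genes, beside 1833 of the 14409 genes it tested, and edgeR called 1. None of Nrcam, Rbfox1, Nrarp and Cryab was called when any 1 of the 3 controls or NPY-labelled replicate 1 was left out. Nrarp was called in 0 of the 6 fits with 1 library left out, Cryab in the fit without NPY-labelled replicate 3, and Nrcam and Rbfox1 without NPY-labelled replicate 2 or 3.

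Genes of serotonin, which the series title concerns, gave 1 call. Tgm2, the transglutaminase that attaches serotonin to histones, had 488, 468 and 717 CPM in NPY-labelled tumours, against 404, 498 and 382 CPM in control tumours. The groups overlapped, and its log2 fold change of 0.45 (SE 0.21) did not pass (adjusted p 0.253). Maoa, which degrades serotonin, had 12.4, 15.6 and 21.9 CPM in NPY-labelled tumours, against 29.4, 35.3 and 38.9 CPM in control tumours, without overlap and without a call (log2 fold change -0.996, SE 0.25, adjusted p 0.069). Ddc, which makes serotonin from its precursor, had 21.1, 17.4 and 14.1 CPM in NPY-labelled tumours, against 8.26, 7.71 and 12.1 CPM in control tumours (0.99, SE 0.26, adjusted p 0.0807). The vesicular transporter gene Slc18a2 was not called (-1.40, adjusted p 0.2), and the list had 0 calls in 7 genes tested. Of the 13 serotonin receptors 2 were tested; the ion channel receptor gene Htr3a fell (log2 fold change -2.76, SE 0.54, adjusted p 0.0396, 10 reads over the NPY-labelled group and 88 over the control group), and Htr5a did not pass (-2.64, adjusted p 0.0977). Htr3a lost its call in each of the 6 fits with 1 library left out, and also with the replicate block and in limma-voom.

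Several measures of RNA make-up moved with the group. Rn45s, the precursor of ribosomal RNA, a repeated gene whose reads a library with poly(A) selection is meant to exclude, had 1461, 4363 and 5869 CPM in NPY-labelled tumours, 1409, 1079 and 5503 CPM in ETV5 tumours, 754, 618 and 754 CPM in control tumours, and 735, 3943 and 732 CPM in cortex. It was called higher in NPY-labelled over control tumours (log2 fold change 2.33, SE 0.49, adjusted p 0.0491), as was Lars2, a mitochondrial tRNA ligase gene (1.51, SE 0.26, adjusted p 0.0292). Malat1, a nuclear long RNA, had 45.9, 65.9 and 55.2 CPM in NPY-labelled tumours, 156, 132 and 101 CPM in ETV5 tumours, and 163, 146 and 162 CPM in control tumours. It fell by 1.42 on the log2 scale (SE 0.17, adjusted p 0.0137), and Neat1, the nuclear RNA of paraspeckles, by 1.36 (SE 0.24, adjusted p 0.03). ETV5 replicate 3, the 1 library coded EC outside the NPY-labelled group, had the highest Rn45s and the lowest Malat1 of the 3 ETV5 libraries.

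Ribosomal protein genes (84 measured) took 4.82%, 5.08% and 6.65% of reads in NPY-labelled tumours, against 4.53%, 4.15% and 4.10% in control tumours, which did not overlap. Of 26 in the list all had a positive log2 fold change (53.2% over all genes tested), with a median of 0.40. In 11 the NPY-labelled libraries lay above the control libraries (11.1% over all genes tested). Only 1, Rps7, was called higher (1.003, SE 0.21, adjusted p 0.0447), beside 0.728% over all genes tested. The median SD of log2 values within a group was 0.312 in NPY-labelled and 0.248 in control tumours. The Y-linked gene Ddx3y had 106, 0 and 0 CPM in NPY-labelled tumours, against 87.5, 0.330 and 0 CPM in control tumours, so replicate 1 of each group was the library with Y-linked reads. The part of these measures in the called changes was not tested. None of Rn45s, Lars2, Malat1, Neat1 and Rps7 was called when any 1 of the 3 controls was left out. Malat1 kept its call without each NPY-labelled library, Rn45s and Lars2 without replicate 1 alone, Neat1 without replicate 2 alone and Rps7 without replicate 3 alone.

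**Figure D4:**
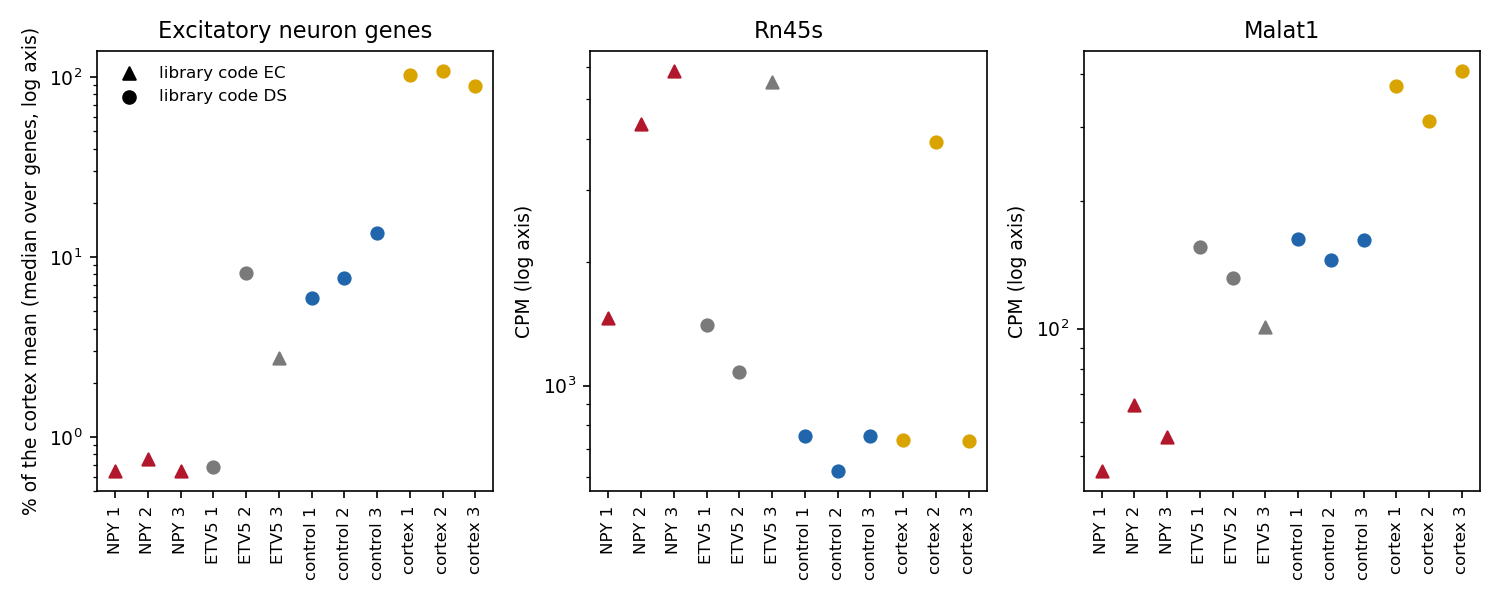
Per library, from left to right in the groups NPY-labelled (red), ETV5 (grey), control (blue) and cortex (yellow): the median level of excitatory neuron genes as % of the cortex mean, Rn45s in CPM and Malat1 in CPM, all on log axes, with triangles for library codes that start with EC and circles for DS. The 3 NPY-labelled libraries are lower than the 3 control libraries in the panels of neuron genes and Malat1 and higher in that of Rn45s. ETV5 replicate 3, also coded EC, and cortex replicate 2, coded DS, are near the NPY-labelled libraries for Rn45s, whereas ETV5 replicate 3 is above them for Malat1 and for neuron genes. ETV5 replicate 1, coded DS, is near NPY-labelled replicate 1 for Rn45s (1409 and 1461 CPM). For neuron genes ETV5 replicate 1 lies among the NPY-labelled libraries, at 0.681%.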

How the data were processed

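RNA of mouse tumours was sequenced from poly(A)-selected, strand-specific libraries as paired ends, per the labels' protocols. STAR 2.5.0a, DESeq2 1.30.1, MultiQC 1.6, FastQC 0.11.7 and the genome build mm10 appear in the submitters' processing notes; the sources used here give neither the counting tool, nor its use of strand, nor the annotation. The authors deposited a normalized signal per gene, in which each value is a whole number of reads divided by 1 size factor per library. Within a tolerance of 0.01 read, 100% of the values gave back whole reads, and the control libraries held the same reads in both deposited tables. In each table of 24421 rows, 27 symbols had turned into dates and 2 names were repeated.

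Group and replicate came from the sample titles. Log2(deposited value + 1) was fitted by group with limma 3.58.1 (trend and robust moderation, R 4.3.3), as planned for values that are not raw counts, two-sided, after filtering with filterByExpr of edgeR (minimum 10 reads in 3 libraries, scaled to library size, and 15 in total). The p-values of the 14425 genes left were adjusted by the Benjamini-Hochberg method. The count test of edgeR 4.0.16 on recovered reads, with TMM, called 685 genes, and DESeq2 1.42.0 called 1833. The limma script was tested on simulated data. Further alternatives changed scaling, pseudocount, filter, moderation, the libraries in the fit, a replicate block and a term for the library code (20 in all). Replicates of a group differed by more than sampling noise.

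The comparison and the 50 gene lists were chosen with earlier results of these data known, so lists are described by counts, medians and levels, with no test over a list. Named genes followed a rule: NPY, serotonin, fusion and Etv5 genes; the 15 largest called changes per direction whose groups did not overlap and averaged 5 CPM or more; in each list, the 4 most abundant called members a direction, or its 2 most abundant members if fewer than 2 were called; and the RNA make-up genes. The text prints part of them. Positions are from GENCODE M21 (GRCm38), in which 97 of 98 such genes were found, and promoter windows from RefSeq (GRCm38.p6). No interval is given for low counts, and floors cover counting error only. The levels of ETV5 tumours and cortex are not part of any test of the main fit.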

Additional observations from a re-analysis of the deposited data

How the results depend on the processing

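The main counts were 727 genes called, 105 higher, 622 lower and 635 at least 2-fold. DESeq2 gave 1833, 606, 1227 and 1172. The fit on 9 tumour libraries gave 1, 1, 0 and 1, and the library code as a term gave 0, 0, 0 and 0. Scaling to library totals moved the genes called higher to 69 and limma-voom with TMM on recovered reads moved them to 55, while a mean of at least 50 units left 408 lower and 420 at least 2-fold. With 1 library left out the counts ranged from 1 to 571 called, 0 to 69 higher, 1 to 502 lower and 1 to 526 at least 2-fold, lowest in each case without control replicate 2. The replicate block gave 264, 18, 246 and 264. The numbers were not taken to pair the samples, since same-numbered libraries correlated at -0.39, 0.13 and 0.37 in their deviations from the group means, although replicate 1 of each group was the library with Y-linked reads. Only NPY-labelled replicate 3 and control replicate 2 correlated best with their own number in the other group.

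The named genes printed were 72 called and 24 not called in the main fit. Of their 1913 values under the 20 alternatives, 1352 kept their status, whether called or not called. Of the rest, 535 lost a call, 15 gained one and 11 changed sign. With the library code as a term, the sign changed for H2-Ab1 (0.30), Foxl2os (-0.15), Nhs (-0.40), Rela (-0.075), 2700081O15Rik (-0.17) and Igf2 (-0.047). With 1 library left out, H2-Ab1 ranged from -1.17 to 0.62 and Rela from -0.032 to 0.24. The cause of these changes was not tested. With 3 libraries a group, 3389 genes had an unadjusted p under 0.05 and 727 passed, so a gene that was not called is not shown to be alike in the groups.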
